A study of Mus musculus with 4 samples.

Results

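The transcripts described here are 10 protein-coding transcripts of the mouse mitochondrial genome, mt-Nd1, mt-Nd2, mt-Nd3, mt-Nd4, mt-Nd5, mt-Cytb, mt-Co1, mt-Co2, mt-Co3 and mt-Atp6, chosen by name. They are 10 of the 22574 genes in the deposited table, which also holds the other 3 protein-coding genes of that genome, mt-Nd4l, mt-Nd6 and mt-Atp8. Their unique molecular identifiers (UMIs, 1 for each captured RNA molecule) were summed in each library and cardiomyocyte population and expressed as counts per 1000000 UMIs (CPM). The percent of each nucleus's UMIs that came from all 13 genes, as the authors deposited it, was read beside these sums.

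The data were single-nucleus RNA sequencing (snRNA-seq) of cardiomyocyte nuclei from neonatal mouse hearts, with 1 library for each combination of genotype and surgery. The mice carried Nrf1fl/fl, a loxP-flanked allele of Nfe2l1, which encodes the transcription factor the study calls Nrf1 and is a different gene from the one with the symbol Nrf1. KO mice also carried αMHC-Cre, whose promoter is active in cardiomyocytes, and WT mice had no Cre. Myocardial infarction (MI, ligation of a coronary artery) or a Sham operation was done at postnatal day 3, and tissue below the ligation plane was collected 1 day later and pooled from 4 to 6 hearts per library. The strain field of the labels gives C57BL/6 for MI-WT, C57BL/7 for MI-KO, C57BL/8 for Sham-WT and C57BL/9 for Sham-KO, while the study's methods place all the mice on a C57BL/6 background. With 1 pooled library per group there was no replicate, so no difference between libraries could be tested. Every interval below is a 95% interval that covers counting error only, and UMIs of the same nucleus are not independent.

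The depth was 4984625 UMIs from 1406 nuclei in Sham-WT, 9106522 from 3328 in Sham-KO, 7955986 from 2003 in MI-WT and 7359887 from 1848 in MI-KO. Across libraries, 9 cell barcodes occurred in 2 libraries. The targeted gene Nfe2l1 stood at 62.2 CPM in Sham-WT, 50.5 in Sham-KO, 47.4 in MI-WT and 55.3 in MI-KO, so it was lower under the KO label after Sham and higher under the KO label after MI. Counts of 3′ tags over whole genes need not cover the deleted part of a gene and so need not check a knockout, and "KO" and "WT" below name libraries as labelled.

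The mitochondrial genome encodes core subunits of 4 of the enzyme complexes of oxidative phosphorylation, while the remaining subunits are encoded in the nucleus and imported. It is transcribed as long RNAs from both strands, from which the tRNAs are cut out to release the mRNAs, and the mRNAs receive short poly(A) tails. These mRNAs stay inside mitochondria. In a preparation of nuclei they therefore come from material outside the nucleus that was carried along or, where sequences are shared, from nuclear copies of mitochondrial DNA, and their level is not the level in the whole cell. Heart muscle is rich in mitochondria, and around birth its metabolism shifts from glycolysis towards oxidative phosphorylation.

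The ends of the coding sequences are shown because the members differ in how the stop codon is made. Counting of 3′ tags with oligo(dT) primers starts at the poly(A) tail, which need not follow the coding sequence directly. Each line gives the last 30 bases of the coding sequence, 5′ to 3′, from the GENCODE M21 transcripts on GRCm38, with the encoded stop letters in capitals. In mt-Co3, mt-Nd4 and mt-Cytb the sequence ends in a lone T, and the poly(A) tail completes the stop codon.
mt-Co3: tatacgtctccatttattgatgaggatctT
mt-Nd4: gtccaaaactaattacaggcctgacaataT
mt-Cytb: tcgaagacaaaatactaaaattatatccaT
mt-Atp6: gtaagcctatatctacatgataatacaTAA
mt-Co1: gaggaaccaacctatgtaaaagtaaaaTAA
mt-Nd3: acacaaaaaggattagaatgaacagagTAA
mt-Nd5: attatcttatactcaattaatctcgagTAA

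On GRCm38 the 10 genes lie on the plus strand of the mitochondrial chromosome, each as 1 uninterrupted stretch of coding sequence: mt-Nd1 at chrM:2751-3707, mt-Nd2 at chrM:3914-4951, mt-Co1 at chrM:5328-6872, mt-Co2 at chrM:7013-7696, mt-Atp6 at chrM:7927-8607, mt-Co3 at chrM:8607-9390, mt-Nd3 at chrM:9459-9806, mt-Nd4 at chrM:10167-11544, mt-Nd5 at chrM:11742-13565 and mt-Cytb at chrM:14145-15288. Their lengths ran from 348 bases (mt-Nd3) to 1824 bases (mt-Nd5). The first codon was GTG in mt-Nd1, ATA in mt-Nd2, ATT in mt-Nd3 and ATC in mt-Nd5, and ATG in the other 6.

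Several members overlap a neighbour or have a near-identical nuclear copy, so their counts are uncertain to that extent. mt-Atp6 shares 43 bases with the end of mt-Atp8, 1 base with mt-Co3, and mt-Nd4 shares 7 bases with mt-Nd4l. mt-Nd5 overlaps mt-Nd6, which is on the other strand, by 14 bases. The stretch that mt-Atp8 and mt-Atp6 share shows how closely the reading frames are packed, with the start codon of mt-Atp6 and the stop codon of mt-Atp8 in capitals (chrM:7927-7969).
mt-Atp8 and mt-Atp6: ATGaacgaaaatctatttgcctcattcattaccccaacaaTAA

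Among annotated nuclear transcripts, pseudogenes on chromosome 1 matched mt-Atp6 (Gm10925), mt-Co2 (Gm28661) and mt-Co3 (Gm28437) at 100% identity over nearly the whole gene, and mt-Nd4 (Gm28439) at the same identity over 876 of 1378 bases. The copy of mt-Nd3 (Gm28438) matched at 99.7% and that of mt-Co1 (Gm29216) at 99.8% over 483 bases. None of these 6 pseudogenes is a row of the deposited table, so how reads common to a gene and its copy were counted was not tested.

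Per kilobase of coding length, the 13 genes stood in the same order in all 4 libraries. That order depends on the division by length, while a UMI counts 1 molecule whatever its length. In CPM without the division, mt-Nd4 stood above mt-Nd1 in each library, at 5466 and 4618 in Sham-WT. The CPM of mt-Co1, mt-Atp6 and mt-Cytb was 9372, 9200 and 9163 in Sham-WT. In MI-WT it was 7099, 6741 and 7830, so their order in CPM was not fixed. mt-Co3, a core subunit of cytochrome c oxidase (complex IV), was highest at 21728 CPM per kb in Sham-WT, 28714 in Sham-KO, 19467 in MI-WT and 18598 in MI-KO. mt-Co2, of the same enzyme, followed at 15022 CPM per kb in Sham-WT, 19902 in Sham-KO, 12250.3 in MI-WT and 11767 in MI-KO, and mt-Atp6, of the proton channel of ATP synthase (complex V), at 13509 CPM per kb in Sham-WT, 17718 in Sham-KO, 9899 in MI-WT and 9959 in MI-KO. Next came mt-Cytb, the mitochondrially encoded subunit of complex III, at 6539 to 9785 CPM per kb, and mt-Co1, the catalytic subunit of complex IV, at 4436 to 7369.6.

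The subunits of NADH dehydrogenase (complex I) were lower per length. mt-Nd1 ranged over libraries from 3809.7 to 6176 CPM per kb, mt-Nd4 from 3592 to 4940.2, mt-Nd2 from 2577 to 3968 and mt-Nd3 from 1984 to 2421. mt-Nd5 was the lowest of the 10, at 122 CPM per kb in Sham-WT, 132 in Sham-KO, 135 in MI-WT and 112 in MI-KO. Tags that fall past the annotated end of a gene would not be counted for it, and this was not tested for mt-Nd5. The ranges over libraries of neighbours in this order overlapped, except that mt-Atp6 was above mt-Cytb, mt-Nd2 above mt-Nd3 and mt-Nd3 above mt-Nd5 with no overlap. Of the genes that are not members, mt-Nd4l stood between mt-Nd3 and mt-Nd5, at 285 to 367 CPM per kb. mt-Atp8 reached at most 90.97 and mt-Nd6, the gene on the other strand, at most 67.7. Both mt-Nd4l and mt-Atp8 overlap the start of the next gene. Tags from the 3′ end of an RNA that spans both genes would be assigned to mt-Nd4 or mt-Atp6. The values of mt-Nd4l and mt-Atp8 are thus counts assigned to a gene and need not be levels of separate RNAs. The 10 members gave 99.8% of all UMIs from the 13 genes.

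**Figure D1:**
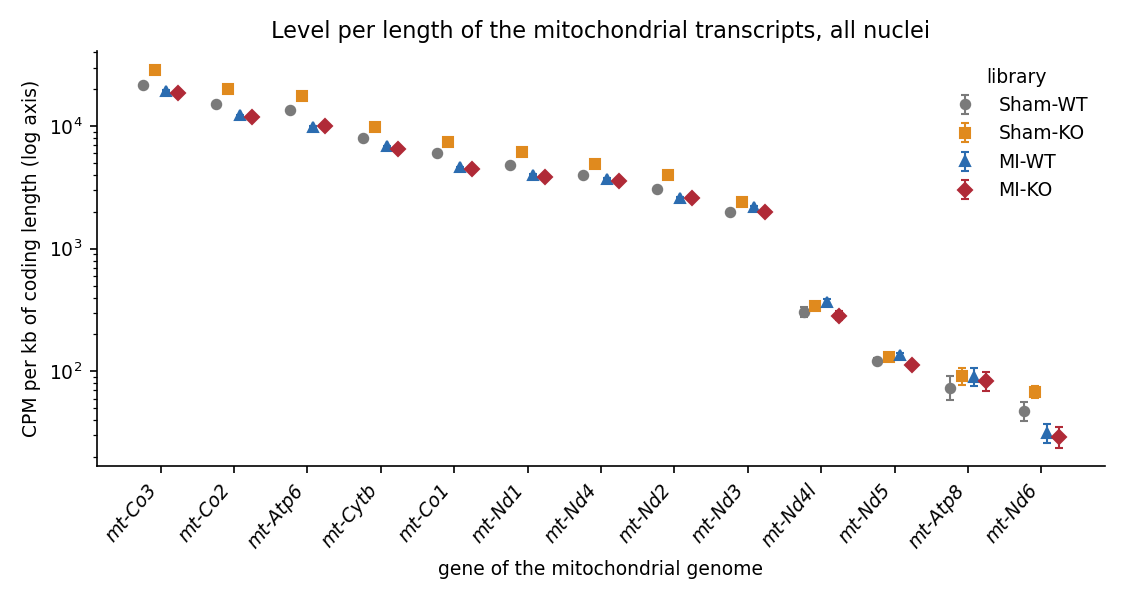
Level of each gene of the mitochondrial genome in CPM per kb of coding length (log axis) in the 4 libraries, all nuclei, with 95% Poisson intervals. The order of the genes in CPM per kb is the same in every library, and Sham-KO is the highest library for each of the first 9 genes, from mt-Co3 to mt-Nd3.

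The range of mitochondrial percents that the deposited nuclei cover differed between libraries, which touches every comparison below. The highest percent of any nucleus was 19.84 in Sham-WT, 14.99 in Sham-KO, 17.92 in MI-WT and 12.99 in MI-KO. Each of these lay just below a whole percent, 20 in Sham-WT, 15 in Sham-KO, 18 in MI-WT and 13 in MI-KO. The last percentage point below that whole percent held 17 nuclei in Sham-WT, 144 in Sham-KO, 15 in MI-WT and 51 in MI-KO. The point before it held 7, 177, 14 and 63 in the same order. The study's methods describe limits on the number of genes detected and do not name a limit on this percent. Above the end of MI-KO lay 176 nuclei of Sham-WT (12.5%), 324 of Sham-KO (9.74%) and 96 of MI-WT (4.79%). In population CM4 these were 137 of 192 nuclei in Sham-WT, 95 of 351 in Sham-KO and 50 of 192 in MI-WT. Each comparison is therefore also given under a common upper limit, that is, with only the nuclei at or below 12.99% in every library, a setting chosen after seeing the data. The limit is the highest value of MI-KO, so it removes no MI-KO nucleus and lowers the summed level of the other libraries. A rise of the summed ratio of MI-KO to another library under this limit was thus fixed in advance, and only its size is informative.

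**Figure D2:**
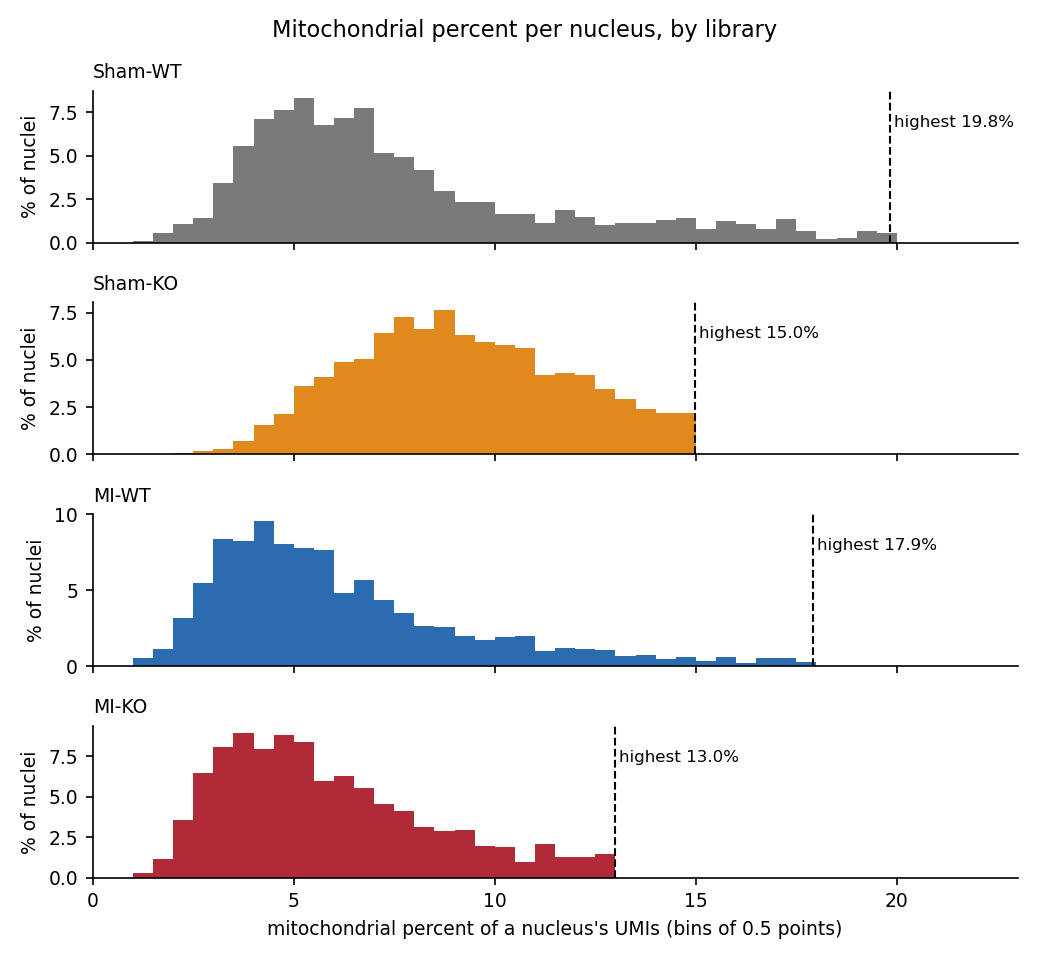
Distribution of the mitochondrial percent of UMIs per nucleus (x axis, bins of 0.5 points) as the percent of each library's nuclei (y axis), with the highest value of each library as a dashed line. Each distribution ends just below a whole percent, at 19.84% in Sham-WT, 14.99% in Sham-KO, 17.92% in MI-WT and 12.99% in MI-KO.

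In all nuclei, the 10 genes together reached 69244 CPM (69014 to 69476) in Sham-WT, 88689 CPM (88496 to 88883) in Sham-KO, 57944 CPM (57777 to 58111) in MI-WT and 55911 CPM (55740.2 to 56082) in MI-KO. Sham-KO was the highest library, and within each genotype the MI library lay below the Sham library. The median mitochondrial percent per nucleus was 6.58 (quartiles 4.88 and 9.16) in Sham-WT and 8.98 (7.21 and 11.1) in Sham-KO. It was 5.37 (3.88 and 7.54) in MI-WT and 5.29 (3.81 and 7.38) in MI-KO.

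The study divided the nuclei into CM1 (which holds CM1 and CM3 together), CM2, CM4 and CM5, and CM4 had the highest level of the 10 genes in every library. Their summed level in CM4 was 139927 CPM in Sham-WT, 113721 in Sham-KO, 104480 in MI-WT and 94334 in MI-KO. In CM1, the most numerous population, it was 63123 CPM in Sham-WT, 87006 in Sham-KO, 55442 in MI-WT and 53412 in MI-KO. CM4 was thus 2.22-fold above CM1 in Sham-WT, 1.88-fold in MI-WT, 1.77-fold in MI-KO and 1.31-fold in Sham-KO. All 10 genes were higher in CM4 than in CM1 in each library, by 0.99 to 1.505 on the log2 scale in Sham-WT and by 0.18 to 0.49 in Sham-KO. mt-Co1, mt-Co2 and mt-Atp6 each had a larger ratio than the sum in each library, that of mt-Co1 running from 0.49 in Sham-KO to 1.32 in Sham-WT. With the common upper limit CM4 remained above CM1, by 1.74-fold in Sham-WT with 55 nuclei left, 1.700-fold in MI-WT and 1.24-fold in Sham-KO, and no nucleus of MI-KO was removed. The populations were defined from the same nuclei, so these are descriptions.

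CM2 was the lowest population in every library, at 53808 CPM in Sham-WT, 77253 in Sham-KO, 50716 in MI-WT and 50907 in MI-KO, with 27 to 124 nuclei per library. CM5 was close to CM1, at 66771 CPM in Sham-WT, 86634 in Sham-KO, 55751 in MI-WT and 57012 in MI-KO. Over the 16 sums of library and population the level ranged 2.76-fold, from 50716 CPM in CM2 of MI-WT to 139927 CPM in CM4 of Sham-WT.

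The number of UMIs from the 10 genes per nucleus varied much less than this level, and less than the number from nuclear genes. Over the same 16 sums the mean number of UMIs of the 10 genes per nucleus ran from 217 to 288, a range of 1.33-fold. The mean number of UMIs of nuclear genes ran from 1771 to 4287, a range of 2.42-fold. In CM4 of Sham-WT a nucleus had a mean of 288 UMIs of the 10 genes and 1771 of nuclear genes, against 239 and 3542 in CM1. In MI-WT the 10 genes gave 229 UMIs per nucleus in CM4 and 227 in CM1, while nuclear genes gave 1965 and 3871. More mitochondrial RNA per nucleus and less nuclear RNA per nucleus cannot be told apart from a level in CPM alone.

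**Figure D3:**
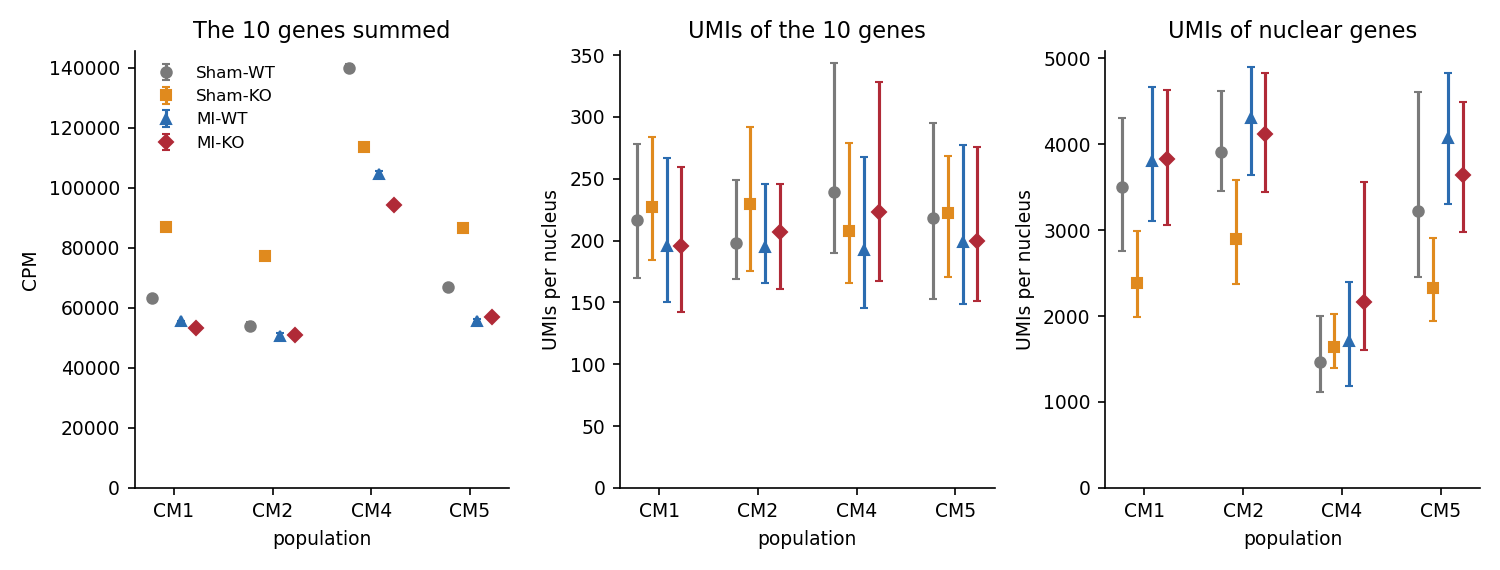
The 10 genes by population (x axis) and library: their summed level in CPM with 95% Poisson intervals (left), the median number of their UMIs per nucleus with quartiles (middle) and the median number of UMIs of nuclear genes per nucleus with quartiles (right). CM4 is highest in CPM in all 4 libraries, and its nuclei have the fewest UMIs of nuclear genes.

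Within each library the mitochondrial percent fell with depth. When the nuclei of a library were split into 4 equal groups by UMIs, from the group with the fewest to the group with the most, the median percent went from 10.6 to 4.996 in Sham-WT, 10.5 to 7.59 in Sham-KO, 7.11 to 4.23 in MI-WT and 6.75 to 4.404 in MI-KO. The group with the fewest UMIs was 44.3% CM4 in Sham-WT. Across nuclei of CM1 alone the Spearman correlation of the percent with total UMIs was -0.37 (n = 1098 nuclei) in Sham-WT, -0.33 (n = 2619) in Sham-KO, -0.28 (n = 1415) in MI-WT and -0.30 (n = 1308) in MI-KO. The nuclei of a correlation share a library, and the percent has the total as its denominator, so these are descriptions.

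The metadata also hold, for each nucleus, a label transferred from an earlier reference, which need not equal the final population. Among nuclei placed in CM1, those whose transferred label was CM4 had a median mitochondrial percent of 7.52 in Sham-WT (n = 15), 10.6 in Sham-KO (n = 79), 7.09 in MI-WT (n = 45) and 9.56 in MI-KO (n = 17). Those whose transferred label was CM1 had a median of 6.13 in Sham-WT (n = 934), 8.66 in Sham-KO (n = 2122), 5.08 in MI-WT (n = 1161) and 5.04 in MI-KO (n = 1088). The CM4 label went with the higher percent in each library. Among nuclei placed in CM4, the median was 14.96 in Sham-WT (n = 160), 11.8 in Sham-KO (n = 234), 11.2 in MI-WT (n = 152) and 9.695 in MI-KO (n = 106) where the transferred label was also CM4, and 12.8 in Sham-WT (n = 28), 11.01 in Sham-KO (n = 90), 7.92 in MI-WT (n = 26) and 8.604 in MI-KO (n = 10) where it was CM1. The names CM2 and CM5 appeared exchanged between the labels. Of the nuclei placed in CM2, 197 carried the transferred label CM5, with a median percent of 6.01, and of those placed in CM5 743 carried CM2, with a median of 5.86. The names of the final populations are used here.

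The effect of the KO label was compared within each surgery. After Sham, all 10 genes were higher in Sham-KO, by 0.11 to 0.41 on the log2 scale, and their sum by 0.36 (0.35 to 0.36). mt-Co3 went from 17035 to 22512 CPM, a log2 ratio of 0.40 (0.39 to 0.41), and mt-Co2 from 10275 to 13613, a log2 ratio of 0.41 (0.39 to 0.42). mt-Atp6 differed by 0.39 (0.38 to 0.41), mt-Nd1 by 0.36 (0.33 to 0.38) and mt-Nd5, the gene with the smallest ratio, by 0.11 (0.0066 to 0.22). None of the 10 was past 1.5-fold, against 5.74% of the 13370 genes tested (those reaching 20 UMIs over the pair of libraries) that were higher and 5.61% that were lower by that much. The median of the 10 log2 ratios was 0.34, beside -0.095 over all genes. TMM scaling moved every gene by 0.10 in this comparison.

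The Sham ratio differed between populations. It was 0.46 (0.46 to 0.47) in CM1, 0.52 (0.48 to 0.56) in CM2 and 0.38 (0.35 to 0.40) in CM5, and -0.30 (-0.31 to -0.28) in CM4, where Sham-KO was the lower library. When the common upper limit was applied it was 0.46 (0.46 to 0.47) in CM1 and -0.024 (-0.050 to 0.0024) in CM4. In CM4 that limit lies below the median percent of Sham-WT, 14.6, and above that of Sham-KO, 11.6. It removed 137 of 192 CM4 nuclei of Sham-WT and 95 of 351 of Sham-KO. The cut thus lowers Sham-WT more in CM4, and no conclusion is drawn from the move of this ratio towards 0. Per nucleus, UMIs of the 10 genes in all nuclei differed between Sham-KO and Sham-WT by -0.017 on the log2 scale and UMIs of nuclear genes by -0.40. By population the values were 0.030 and -0.47 in CM1, 0.17 and -0.39 in CM2, -0.28 and 0.058 in CM4 and -0.053 and -0.46 in CM5, so CM2 and CM1 had more UMIs of the 10 genes per nucleus in Sham-KO.

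After MI, 9 of the 10 genes were slightly lower in MI-KO and their sum differed by -0.052 (-0.058 to -0.045). mt-Co3 stood at 15262 CPM in MI-WT and 14581 in MI-KO, a log2 ratio of -0.066 (-0.078 to -0.054). The lowest ratios were those of mt-Nd5, at -0.27 (-0.36 to -0.17), and mt-Nd3, at -0.14 (-0.19 to -0.081), while mt-Atp6 stood at 0.0088 (-0.0088 to 0.026) and turned to -0.014 with TMM scaling and -0.031 with DESeq2 size factors. None of the 10 was past 1.5-fold, where 3.94% of 13678 genes were higher and 3.68% lower. The median of the 10 was -0.062, beside 0.030 over all genes. The direction depended on the upper end of the percent: under the common upper limit the sum was 0.038 (0.031 to 0.044) and 8 of the 10 genes were higher in MI-KO, with mt-Nd5 at -0.13 (-0.23 to -0.032) and mt-Nd3 at -0.047 (-0.10 to 0.0078) still lower. In CM4 the ratio was -0.15 (-0.17 to -0.13) with all nuclei and 0.054 (0.031 to 0.076) under the common upper limit. That limit removed no nucleus of MI-KO, so it could only raise these summed ratios.

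The effect of MI was compared within each genotype. Between MI-WT and Sham-WT, 8 of the 10 genes were lower after MI and the sum differed by -0.26 (-0.26 to -0.25). mt-Atp6 was the lowest, at -0.45 (-0.47 to -0.43), followed by mt-Co1 at -0.40 (-0.42 to -0.38) and mt-Co2 at -0.29 (-0.31 to -0.28). mt-Nd3 went from 690.3 to 759 CPM and mt-Nd5 from 222 to 246, and these genes were higher after MI, by 0.14 (0.076 to 0.20) and 0.15 (0.039 to 0.25). None of the 10 was past 1.5-fold, where 12.5% of 13415 genes were higher and 15.9% lower. The median of the 10 was -0.24, beside -0.066 over all genes. The sum was lower after MI in all 4 populations, from -0.085 (-0.13 to -0.041) in CM2 to -0.42 (-0.44 to -0.40) in CM4. Within the common upper limit the ratio was -0.17 (-0.18 to -0.17) in all nuclei and -0.21 (-0.23 to -0.18) in CM4. In CM4 that limit removed 137 of 192 nuclei of Sham-WT and 50 of 192 of MI-WT.

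Between MI-KO and Sham-KO all 10 genes were lower after MI and the sum differed by -0.67 (-0.67 to -0.66). Of the 10, 6 were lower by 1.5-fold or more: mt-Atp6 at -0.83 (-0.85 to -0.82), mt-Co2 at -0.76 (-0.77 to -0.74), mt-Co1 at -0.73 (-0.75 to -0.72), mt-Nd1 at -0.70 (-0.72 to -0.68), mt-Co3 at -0.63 (-0.64 to -0.62) and mt-Nd2 at -0.62 (-0.65 to -0.60). Of all 13806 genes, 12.5% were lower and 14.1% higher by that much. The median of the 10 was -0.62, beside 0.045 over all genes. Within the common limit 4 of the 10 were past 1.5-fold (with TMM scaling or DESeq2 size factors and all nuclei, 7 were) and the sum was -0.58 (-0.59 to -0.58). Per nucleus, UMIs of the 10 genes differed by -0.12 and UMIs of nuclear genes by 0.59 on the log2 scale. In CM4 the ratio of the sum was -0.27 (-0.29 to -0.25), nearer to no change than in CM1, at -0.70 (-0.71 to -0.70). This comparison shares Sham-KO and MI-KO with the comparisons of genotypes above.

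Markers of myeloid and red blood cells moved with surgery and label in the same sums. The 11 myeloid markers together stood at 130.2 CPM in Sham-WT, 99.05 in Sham-KO, 553 in MI-WT and 283 in MI-KO, with 9 of 11 higher by 1.5-fold or more after MI in WT, 9 after MI in KO, and 6 lower in MI-KO than in MI-WT and 4 lower in Sham-KO than in Sham-WT. In CM4 they stood at 207 CPM in Sham-WT, 127 in Sham-KO, 964 in MI-WT and 509 in MI-KO. The 5 red blood cell markers stood at 3296 CPM in Sham-WT, 2318 in Sham-KO, 4519 in MI-WT and 2123 in MI-KO, with 4 of 5 lower by 1.5-fold or more in MI-KO than in MI-WT. By the same fold, 12.5% of all genes were higher after MI in WT and 14.1% in KO. Of all genes, 3.68% were lower in MI-KO than in MI-WT and 5.61% in Sham-KO than in Sham-WT. Their part in the ratios of the 10 genes was not tested.

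**Figure D4:**
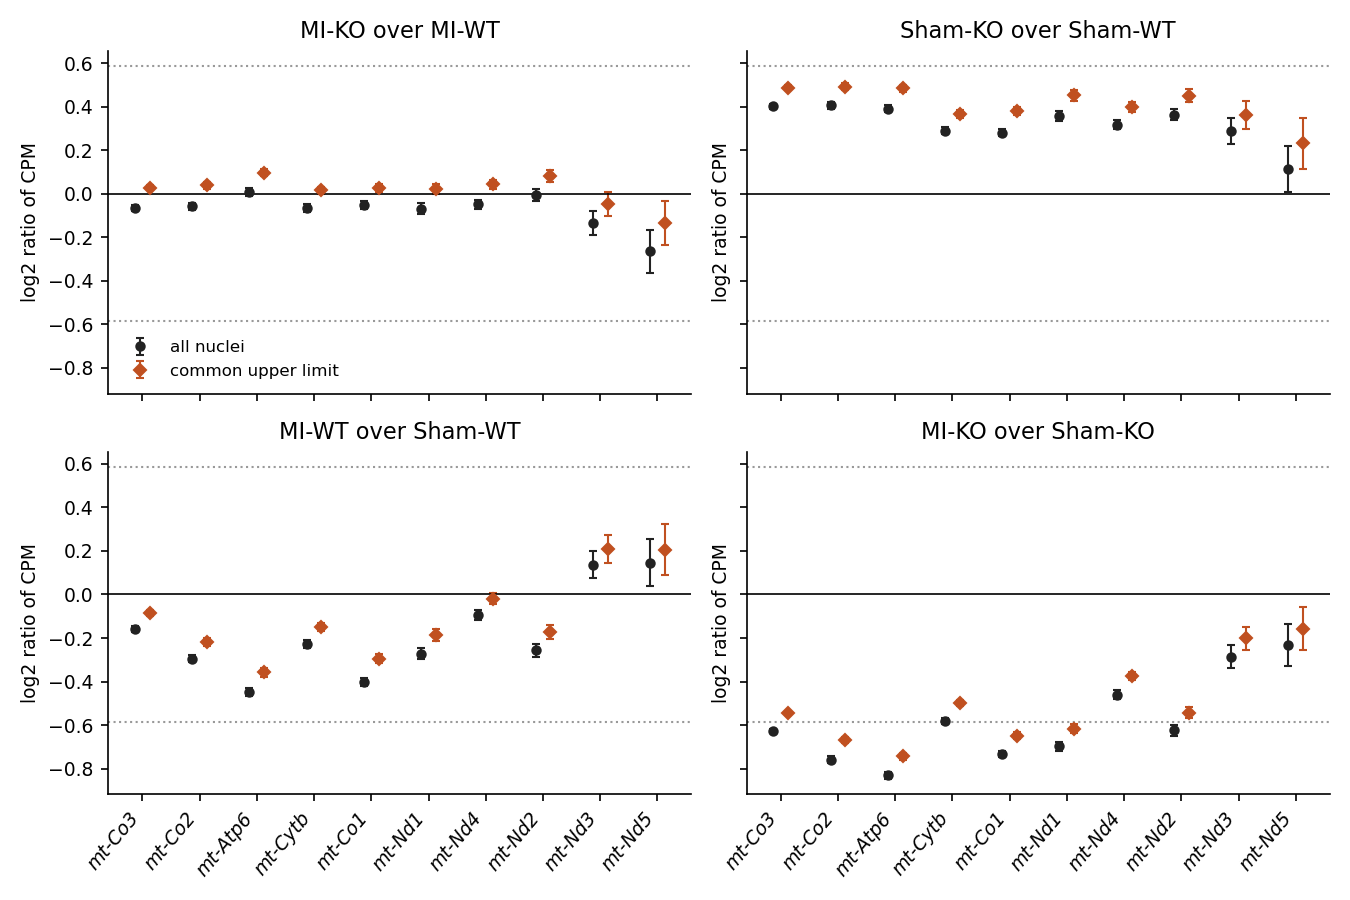
Log2 ratio of CPM (y axis) of each of the 10 genes (x axis) in the 4 comparisons, with all nuclei (circles) and under the common upper limit on the mitochondrial percent (diamonds), with 95% counting intervals and dotted lines at 1.5-fold. Under the common limit the ratios move upwards in every comparison, and in MI-KO over MI-WT they cross 0 for most genes. The limit removes no MI-KO nucleus, so for the sum the upward move of the ratios of MI-KO was fixed in advance.

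The makeup of the mitochondrial UMIs differed between surgeries in the same direction in both genotypes, in a measure that leaves out the UMIs of nuclear genes. The comparisons MI-WT over Sham-WT and MI-KO over Sham-KO share no library. As a share of the UMIs of the 10 genes, mt-Atp6 was 13.3% in Sham-WT, 13.6% in Sham-KO, 11.6% in MI-WT and 12.1% in MI-KO, lower after MI in each genotype. mt-Co1 was 13.5% in Sham-WT, 12.8% in Sham-KO, 12.3% in MI-WT and 12.3% in MI-KO, also lower after MI. mt-Nd4 was 7.89% in Sham-WT, 7.68% in Sham-KO, 8.84% in MI-WT and 8.85% in MI-KO, higher after MI.

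The least abundant members, mt-Nd3 and mt-Nd5, moved most. mt-Nd3 gave 0.997% in Sham-WT, 0.9498% in Sham-KO, 1.31% in MI-WT and 1.24% in MI-KO of the UMIs of the 10 genes. mt-Nd5 gave 0.321% in Sham-WT, 0.271% in Sham-KO, 0.424% in MI-WT and 0.366% in MI-KO. Relative to the other 9 genes, the log2 ratio of MI to Sham was 0.40 (0.34 to 0.46) in WT and 0.38 (0.33 to 0.44) in KO for mt-Nd3, and 0.40 (0.30 to 0.51) and 0.44 (0.34 to 0.53) for mt-Nd5. For mt-Nd4 it was 0.18 (0.16 to 0.20) and 0.22 (0.21 to 0.24), for mt-Co3 0.13 (0.12 to 0.14) and 0.052 (0.042 to 0.063), and for mt-Atp6 -0.22 (-0.24 to -0.20) and -0.19 (-0.21 to -0.17). For the other genes the ratios were -0.16 (-0.18 to -0.15) and -0.076 (-0.092 to -0.061) for mt-Co1, -0.044 (-0.060 to -0.027) and -0.11 (-0.12 to -0.095) for mt-Co2, and 0.035 (0.017 to 0.052) and 0.10 (0.082 to 0.11) for mt-Cytb, and mt-Nd1 and mt-Nd2 lay between -0.034 and 0.045.

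These directions were also read by population. The populations are parts of the same libraries, so the 8 sums below are not replicates and their counts are descriptions. Over 4 populations and 2 genotypes, mt-Nd3, mt-Nd4, mt-Nd5 and mt-Co3 were above 0 relative to the other genes in 8 of 8 sums and mt-Atp6 was below 0 in 8 of 8, whereas mt-Co1 was below 0 in 6 of 8. Across the 10 genes the ratios in WT and KO had a Pearson correlation of 0.966 and a Spearman correlation of 0.976, given as a description, since the genes share libraries and are not independent. With that limit the Pearson correlation was 0.971, and mt-Nd5 was above 0 in 7 of 8. Between genotypes the largest shift was that of mt-Nd5, at -0.21 (-0.31 to -0.12) after MI and -0.25 (-0.35 to -0.14) after Sham, lower under the KO label in both.

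**Figure D5:**
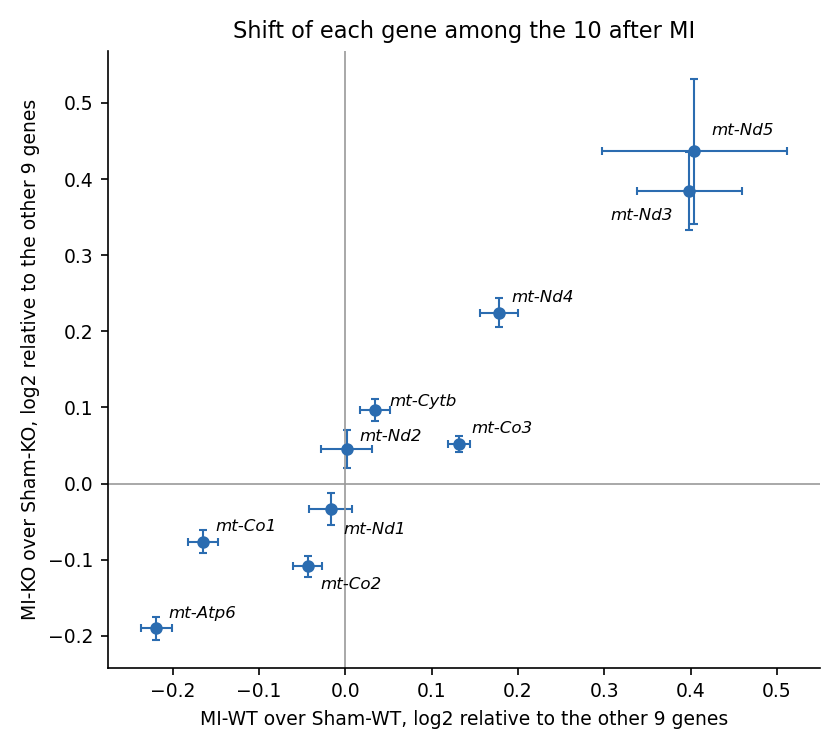
Log2 ratio of MI to Sham of each of the 10 genes relative to the other 9, in WT (x axis) and KO (y axis), all nuclei, with 95% counting intervals. mt-Nd3, mt-Nd5 and mt-Nd4 lie to the upper right and mt-Atp6 to the lower left, so their shift had the same sign in both genotypes.

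Nuclear genes for subunits of the same complexes (I, III, IV and V, 78 genes) were read beside the 10. Their summed level was 35019.9 CPM in Sham-WT, 55291 in Sham-KO, 23509 in MI-WT and 28474 in MI-KO, which is the same order of the Sham libraries as for the 10 genes and the opposite order of the MI libraries. In Sham-KO over Sham-WT 56 of the 78 were higher by 1.5-fold or more and none lower, where 5.74% of all genes were higher, with a median log2 ratio of 0.65. In MI-KO over MI-WT none passed 1.5-fold, and the median was 0.28. After MI 37 were lower in WT and 72 in KO, where 15.9% and 12.5% of all genes were lower, with medians of -0.56 and -0.95, beside the medians over all genes given above. With the common upper limit 11 were lower in WT and 72 in KO.

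In CM4 of the MI libraries the nuclear and the mitochondrial subunits went in opposite directions. There the summed nuclear subunits were higher in MI-KO by 0.57 (0.54 to 0.59) on the log2 scale while the 10 mitochondrial genes differed by -0.15 (-0.17 to -0.13). With nuclei up to the common limit the values were 0.59 (0.56 to 0.62) and 0.054 (0.031 to 0.076), so both were then higher in MI-KO, the nuclear subunits by more. For the most abundant nuclear subunit of each complex, Sham-KO was the highest library and MI-WT the lowest. Cox4i1, of complex IV, stood at 1697 CPM in Sham-WT, 2935 in Sham-KO, 1025 in MI-WT and 1236 in MI-KO. Atp5g1, of ATP synthase, stood at 933 CPM in Sham-WT, 1583 in Sham-KO, 637 in MI-WT and 814 in MI-KO, Uqcrh, of complex III, at 803 CPM in Sham-WT, 1288 in Sham-KO, 499.7 in MI-WT and 606 in MI-KO, and Ndufb9, of complex I, at 651 CPM in Sham-WT, 1059 in Sham-KO, 378 in MI-WT and 479 in MI-KO. Complex II, which has no subunit encoded in the mitochondrial genome, went from 926 CPM over its 4 genes in Sham-WT to 1107 in Sham-KO, 673 in MI-WT and 738 in MI-KO.

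Genes for transcription and replication of mitochondrial DNA (28) and for processing of mitochondrial RNA (22) were counted in the same way. Of the first list, 0 genes were higher and 1 lower in MI-KO over MI-WT, 0 and 2 in Sham-KO over Sham-WT, 1 and 3 in MI-WT over Sham-WT, and 1 and 3 in MI-KO over Sham-KO. Of the second list the counts were 1 and 0, 2 and 0, 1 and 2, and 0 and 1. Over all genes, 3.94% were higher and 3.68% lower in the first of these comparisons, 5.74% and 5.61% in the second, 12.5% and 15.9% in the third and 14.1% and 12.5% in the fourth, so nothing particular to these lists is read from the counts. In these 4 comparisons the medians were 0.0088, 0.0077, -0.057 and -0.12 for the first list and 0.10, 0.016, 0.11 and 0.12 for the second.

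Pprc1, a coactivator related to PGC-1 proteins, stood at 11.4 CPM in Sham-WT, 11.9 in Sham-KO, 30.04 in MI-WT and 33.4 in MI-KO. Its log2 ratio of MI to Sham was 1.39 (0.97 to 1.84) in WT and 1.49 (1.16 to 1.83) in KO. Gabpa, a transcription factor for nuclear genes of mitochondrial proteins, stood at 36.9 CPM in Sham-WT, 30.3 in Sham-KO, 22.5 in MI-WT and 24.6 in MI-KO, lower after MI in WT by a log2 ratio of -0.71 (-1.02 to -0.41). Hsd17b10, a subunit of the RNase P that cuts mitochondrial tRNAs out of the long RNAs, stood at 55.2 CPM in Sham-WT, 75.6 in Sham-KO, 36.5 in MI-WT and 45.1 in MI-KO, with log2 ratios after MI of -0.60 (-0.84 to -0.35) in WT and -0.74 (-0.94 to -0.55) in KO. Taco1, an activator of translation of mt-Co1, had a log2 ratio of -0.70 (-1.20 to -0.19) after MI in WT. Under the KO label, Taco1 stood at 10.2 CPM in Sham-KO and 8.42 in MI-KO.

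Tfam, which packages mitochondrial DNA and starts its transcription, stood at 15.8 CPM in Sham-WT, 22.4 in Sham-KO, 16.1 in MI-WT and 18.9 in MI-KO, with a log2 ratio of 0.50 (0.12 to 0.89) after Sham and 0.23 (-0.13 to 0.59) after MI between KO and WT. Polrmt, the mitochondrial RNA polymerase, stood at 19.5 CPM in Sham-WT, 16.03 in Sham-KO, 19.7 in MI-WT and 20.8 in MI-KO. Lrpprc, which stabilises mitochondrial mRNAs, stood at 95.5 CPM in Sham-WT, 98.1 in Sham-KO, 119 in MI-WT and 112 in MI-KO, and after MI it was higher by 0.32 (0.16 to 0.48) in WT and 0.19 (0.049 to 0.33) in KO. Mgme1 and Polg2, of mitochondrial DNA replication, were lower in Sham-KO than in Sham-WT, by log2 ratios of -0.63 (-1.17 to -0.092) and -0.68 (-1.30 to -0.067). Mgme1 had 66 and 56 UMIs there and Polg2 50 and 44. After MI, Mgme1 stood at 5.57 CPM in MI-KO and 5.40 in MI-WT, and Polg2 at 5.98 in MI-KO and 6.66 in MI-WT. Mgme1 stood at 11.2 CPM in Sham-WT. Twnk, the helicase, and Mterf4 were lower in MI-KO than in Sham-KO, at -0.64 (-1.19 to -0.12) and -0.59 (-1.12 to -0.069). Under the WT label, Twnk stood at 6.82 CPM in Sham-WT and 6.16 in MI-WT, and Mterf4 at 8.02 in Sham-WT and 7.42 in MI-WT. Fastkd3, of mitochondrial RNA processing, was higher in MI-KO than in MI-WT, at 0.93 (0.12 to 1.78) with 37 and 21 UMIs.

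The nuclear genes whose log2 CPM over the 16 sums followed that of the 10 genes most closely were Ubb, which encodes ubiquitin, Crip1, Prdx5, a peroxiredoxin found in mitochondria, Map1lc3b, of autophagy, and Myl3, a myosin light chain. Their Pearson correlations were 0.974, 0.9701, 0.967, 0.967 and 0.967, among 3720 genes with 5 or more UMIs in each sum. The 16 sums come from 4 libraries and share depth and total, so the correlations are descriptions. Myl3 ranged from 1694 to 10334 CPM over the sums, and Ubb from 201 to 819.

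RNAs that stay in the nucleus and RNAs of the cytosol were read beside these levels. Malat1, Neat1, Meg3 and Kcnq1ot1 together stood at 93264 CPM in Sham-WT, 87943 in Sham-KO, 124738 in MI-WT and 120162 in MI-KO over all nuclei, higher in both MI libraries, where the 10 genes were lower. Nearly all of this sum was Malat1, at 92773 CPM in Sham-WT, 87510 in Sham-KO, 123543 in MI-WT and 118994 in MI-KO. The median log2 ratio of MI to Sham over the 4 genes was 1.11 in WT and 1.14 in KO. In CM4 the 4 RNAs summed stood at 24434 CPM in Sham-WT, 54324 in Sham-KO, 59986 in MI-WT and 39407 in MI-KO, below CM1 in every library, where they stood at 99436 CPM in Sham-WT, 91296 in Sham-KO, 124392 in MI-WT and 123135 in MI-KO. In CM4 the sum was lower in MI-KO than in Sham-KO, while the median log2 ratio of the 4 genes was 0.18. Cytosolic ribosomal protein genes (83) stood at 26413 CPM in Sham-WT, 34760.3 in Sham-KO, 28406 in MI-WT and 32194 in MI-KO over all nuclei, an order of libraries that differed from that of the 10 genes. They stood at 67951 CPM in Sham-WT, 56928 in Sham-KO, 68617 in MI-WT and 84706 in MI-KO for CM4, where MI-KO was their highest library and the lowest of the 10 genes, and at 22543 CPM in Sham-WT, 33022 in Sham-KO, 26317 in MI-WT and 29265 in MI-KO for CM1. Their part in the levels of the 10 genes was not tested.

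All 6 cardiomyocyte markers were detected in every library, at a summed 30234 to 33178 CPM. The study picked its cardiomyocyte clusters by expression of Tnnt2, which is among the 6, so these values do not test the label. Markers of other cell types were present at lower levels, and in all nuclei each of their genes had UMIs in each library. In CM4 the summed endothelial markers (7 genes) ran from 1549.8 to 1661 CPM over libraries, against 449 to 819.9 in CM1, and fibroblast markers (7) from 2011 to 2481, against 905 to 1048. Red blood cell markers (5) stood at 12805 CPM in Sham-WT, 7833 in Sham-KO, 8411 in MI-WT and 3538 in MI-KO for CM4, and at 2545 CPM in Sham-WT, 1891 in Sham-KO, 3829 in MI-WT and 2025 in MI-KO for CM1. For CM2 they stood at 1573 CPM in Sham-WT, 1051 in Sham-KO, 18447 in MI-WT and 1892 in MI-KO. CM2 of MI-WT was thus their highest sum, and it was the lowest sum of the 10 genes. Pericyte and smooth muscle markers (5) ran from 176 to 282 CPM in CM4 and from 209 to 395 in CM1. In CM4 Adgre1 was at 0 in Sham-WT, Fcgr1 in Sham-KO, Csf1r in MI-KO and Myh11 in both Sham libraries. The part of these markers in the level of the 10 genes in CM4 and CM2 was not tested.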

How the data were processed

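Nuclei from 4 neonatal mouse heart libraries were measured by 10x 3′ snRNA-seq (kit v2 per the labels, v3 in the study's methods). The authors aligned reads to a pre-mRNA reference of mm10/GRCm38 with Cell Ranger (version not given in the sources used here), removed doublets with Scrublet, filtered on genes detected, kept cardiomyocyte clusters and assigned populations with Seurat 3. They deposited raw UMI counts per gene and nucleus, and per nucleus the percent of UMIs from the mitochondrial genome, the library, the population and the transferred label, as other metadata. The deposited percent equalled that of the 13 mitochondrial genes in all 8585 nuclei, within 1e-06. The other 11 metadata columns were not used.

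Counts were summed per library and population and divided by total UMIs. Intervals were exact Poisson for a level and conditional binomial for a ratio, at 95%. Those for a ratio were tested on simulated independent counts, which do not model UMIs that share a nucleus. With 1 library per group no p-value was computed. A gene entered a comparison with 20 or more UMIs over both sums and was counted at 1.5-fold, with a sum of 0 set to a floor of 3 UMIs. Levels of different genes were compared per kb of coding length (GENCODE M21). 98.00% of the table's symbols were in that annotation. Nuclear copies were searched with blastn 2.17.0 at 90% identity or more. Other scalings used edgeR 4.0.16 (TMM) and DESeq2 1.42.0 size factors in R 4.3.3. Python 3.11.15, numpy 2.4.6 and scipy 1.17.1 were used for the rest.

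The members and gene lists were chosen with earlier results of these data known. Genes named were the 13 mitochondrial genes, Nfe2l1, and always Tfam, Polrmt and Lrpprc. From the transcription, replication and RNA processing lists, up to 4 genes per comparison past 1.5-fold with an interval excluding no change were named, taking those with the most UMIs. The most abundant nuclear subunit of complexes I, III, IV and V and the 5 nuclear genes most correlated with the 10 over the 16 sums complete the rule. The alternatives tried were the denominator, TMM and DESeq2 scaling, equal weight per nucleus, nuclei with 2000 to 4000 UMIs, leaving out the 5% of nuclei with the highest mitochondrial share, all 13 genes, nuclei whose transferred label matched (CM1 with CM1 or CM3, and CM2 and CM5 exchanged), and other minimum counts. A common upper limit on the percent and UMIs per nucleus were added after seeing the data.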

Additional observations from a re-analysis of the deposited data

Results flagged for a closer look

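The summed level of the 10 genes differed between KO and WT in opposite directions after the 2 surgeries. The log2 ratio was -0.052 (-0.058 to -0.045) in MI-KO over MI-WT and 0.36 (0.35 to 0.36) in Sham-KO over Sham-WT, with 1 library for each label. The difference between the surgeries was not tested. Under the common upper limit on the mitochondrial percent the ratios were 0.038 (0.031 to 0.044) and 0.44 (0.44 to 0.45), so the opposite directions were not kept. That limit removed no nucleus of MI-KO, so it could only raise the ratio of MI-KO over MI-WT.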

How the results depend on the processing

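No paired analysis was possible because each group had 1 library, and no library could be left out. In all nuclei, the log2 ratios of the 10 summed genes, in the order MI-KO over MI-WT, Sham-KO over Sham-WT, MI-WT over Sham-WT and MI-KO over Sham-KO, were -0.052, 0.36, -0.26 and -0.67. They were -0.074, 0.46, -0.18 and -0.72 with TMM scaling and -0.091, 0.44, -0.19 and -0.72 with DESeq2 size factors. They were -0.055, 0.39, -0.27 and -0.72 with UMIs of nuclear genes as the denominator and -0.080, 0.26, -0.31 and -0.65 with each nucleus weighted equally. In nuclei with 2000 to 4000 UMIs they were -0.057, 0.28, -0.20 and -0.53, and without the 5% of nuclei with the highest share -0.036, 0.39, -0.27 and -0.70. With all 13 genes they were -0.052, 0.36, -0.26 and -0.67. Under the common upper limit, added after seeing the data, they were 0.038, 0.44, -0.17 and -0.58, and as UMIs per nucleus, also added then, -0.048, -0.017, -0.093 and -0.12.

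Apart from the alternatives added after seeing the data, each kept the direction of all 4 ratios. The common upper limit turned that of MI-KO over MI-WT, and UMIs per nucleus turned that of Sham-KO over Sham-WT. By population, MI-KO over MI-WT turned in CM4 under the common upper limit (0.054) and per nucleus (0.26). It also turned in CM2 with equal weight (-0.024), with matching transferred labels (-0.026) and per nucleus (-0.055), and in CM5 with matching labels (-0.0046) and per nucleus (-0.11). Per nucleus, Sham-KO over Sham-WT turned in CM5 (-0.053), MI-WT over Sham-WT in CM2 (0.031) and MI-KO over Sham-KO in CM4 (0.22). The cause was not tested.

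Of 116 values of the ratio under alternatives, 29 stayed within the counting error of the reported ratio, 75 moved further in the same direction or towards 0 and 12 changed direction. The share of all genes past 1.5-fold depended on the minimum count. It ran from 1.89% to 10.04% for genes higher in MI-KO over MI-WT, 1.73% to 9.46% for those lower there, 3.96% to 9.503% for genes higher in Sham-KO over Sham-WT, and from 3.08% to 14.01% for those lower there.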
